A study of Bos taurus with 9 samples.

Results

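A set of 7 genes of thyroid hormone handling and action were followed through the liver of lactating Holstein cows: the deiodinase *DIO1*, the receptors *THRA* and *THRB*, the hormone-responsive gene *THRSP*, the plasma carrier *SERPINA7* and the transporters *SLC16A10* and *SLCO1C1*. They were taken by symbol from the table of read counts, and all 7 of the 7 symbols were found among its 28786 listed genes. *DIO1* was chosen because earlier work on these counts had called it lower in heat-stressed cows than in both other groups, so its values in those comparisons are a description of why it was picked. The other 6 genes were placed beside it for their roles, with results of these data already known.

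The animals were 9 cows drawn at random from a larger experiment, 3 per group, and each cow gave 1 liver biopsy and 1 poly(A) RNA library. Cows of the thermoneutral group (TN) were kept at a comfortable temperature. Those of the heat stress group (HS) were kept in warm, humid air that was hottest by day, and those of the pair-fed group (PF) were kept in thermoneutrality with their feed held to the intake of the heat-stressed cows. Biopsies were taken on the twelfth day of treatment, all cows were in milk, and their ages are not given in the sources used here. The comparison of HS and PF cows therefore asks about heat at a matched feed intake, and that of PF and TN cows about the reduced intake alone.

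The thyroid gland secretes mainly thyroxine (T4), a prohormone, and the active hormone triiodothyronine (T3) is made from it in other tissues by deiodinases, which remove an iodine atom. *DIO1* encodes the type 1 deiodinase of liver and kidney, a selenoprotein that makes T3 and also breaks down reverse T3 and sulfated hormone, and its gene is itself induced by T3. Inside the cell T3 binds the nuclear receptors encoded by *THRA* and *THRB*, of which the *THRB* product is the main one in hepatocytes, and the receptors pair with retinoid X receptors on DNA.

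The libraries held 16874444 to 22557047 counts. Levels are given as CPM (counts scaled to a common library size) after TMM normalization, which levels out differences in library composition. All 10 hepatocyte markers examined had counts, in keeping with the labelled tissue, and of 6 markers of the thyroid gland *TSHR*, *NKX2-1* and *SLC5A5* had 0 counts in each cow. TN replicate 1 stood apart: its summed hepatocyte markers were 18105 CPM, where the highest TN cow had 79962 CPM, the PF cows 88508 to 120619 CPM and the HS cows 60711 to 130145 CPM. The sum is weighted to abundant genes such as *ALB*, at 8768 CPM in TN replicate 1. Taken singly, *HNF4A* was lower and *SERPINA1* higher in each HS cow than in any TN cow. The fitted values of *APOA1*, *FGB*, *CPS1*, *ALB*, *TF*, *TTR* and *ASGR1* were higher in HS than in TN cows and that of *APOB* was lower. The groups overlapped for each of these. In bulk tissue, fewer cells of a type and less RNA per cell cannot be told apart. Calls come from the quasi-likelihood test of edgeR and need an FDR (Benjamini-Hochberg, over all genes tested) under 0.1 together with a change of more than 1.5-fold. Nothing beyond separate cows is stated about the replicates.

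*DIO1* was lower in every heat-stressed cow than in any cow of the other groups. It stood at 67.5, 52.5 and 59.9 CPM in HS replicates 1, 2 and 3. TN replicates 1, 2 and 3 had 279.6, 267 and 463 CPM, and PF replicates 1, 2 and 3 had 503, 429 and 343 CPM. The HS cows lay close together and below a gap: the lowest TN cow had 3.95 times the level of the highest HS cow, and the lowest PF cow had 5.08 times that level. TN and PF cows, in contrast, lay across each other. The raw counts behind these levels ran from 890 to 8504, so the gene was well covered in each library.

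The mean level of *DIO1* was 59.9 ± 7.47 CPM in the HS group, 336 ± 109.7 in the TN group and 425 ± 80.3 in the PF group (SD, n = 3 each). The log2 fold change (log2FC) of HS against TN cows was -2.50 (SE 0.32, 95% interval -3.23 to -1.77), a 5.67-fold lower level. Against PF cows it was -2.83 (SE 0.28, 95% interval -3.45 to -2.21), a 7.10-fold lower level. The FDR was 0.0684 and 0.00294 (edgeR), and by its p-value *DIO1* ranked 4 of 14582 and 3 of 14510 genes tested. DESeq2 gave FDRs of 7.04e-13 against TN and 8.33e-26 against PF cows. All these values are among those that singled the gene out and are not support for it.

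The intake comparison was not used to pick *DIO1*. Between PF and TN cows its log2FC was 0.34 (SE 0.35, 95% interval -0.43 to 1.10), with an FDR of 0.804 (edgeR). The level was thus ordered PF, TN and HS, and the neighbours PF and TN did not differ beyond their spread.

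Refits of the HS comparisons reuse the values that led to the choice of *DIO1*, so they describe how its values moved with 1 cow fewer and are not support. The call against PF cows held whichever of the 6 cows was left out, with FDRs from 0.00781 to 0.0467 (edgeR). The call against TN cows was lost without HS replicate 1 (edgeR FDR 0.234), HS replicate 2 (FDR 0.246), HS replicate 3 (FDR 0.179) or TN replicate 3 (FDR 0.131), while the log2FC stayed between -2.64 and -2.21. Without TN replicate 1, the cow with the lowest summed hepatocyte markers, it was -2.61 (SE 0.30, edgeR FDR 0.0774). Over all genes, edgeR called 13 between HS and TN cows with no cow left out. It called 3, 0 and 7 without HS replicates 1, 2 and 3, and 4, 39 and 7 without TN replicates 1, 2 and 3. Other measures moved with the groups. Counts on 13 mitochondrially encoded protein genes made up 3.84% to 5.68% in HS, 6.90% to 7.79% in PF and 13.6% to 22.2% of counts in TN cows. The summed level of 6 Kupffer cell and macrophage markers was 829.7 to 1619 CPM in HS, 321 to 785 CPM in PF and 541 to 1155 in TN cows. In this sum the HS cows lay above the PF cows and overlapped the TN cows. In the summed level of 6 lymphocyte markers the HS cows lay below the TN cows (73.0 to 86.8 against 94.5 to 114 CPM). The PF cows had 67.9 to 95.7 CPM. Taken singly, *CD3D*, *CD3E*, *CD2* and *PTPRC* had lower means in HS than in TN cows, and *CD79A* and *CD79B* higher ones. In the sum of 6 erythroid markers both HS cows (0.875 to 2.51 CPM) and PF cows (0.592 to 3.06 CPM) lay below the TN cows (4.08 to 23.2 CPM). Singly, *HBB* was lower in HS than in TN cows (log2FC -4.04), and *AHSP* had the higher mean (0.41) with groups that overlapped. With mitochondrial genes left out, *DIO1* was called in both comparisons as before, and the part of the cell type markers was not tested.

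**Figure D1:**
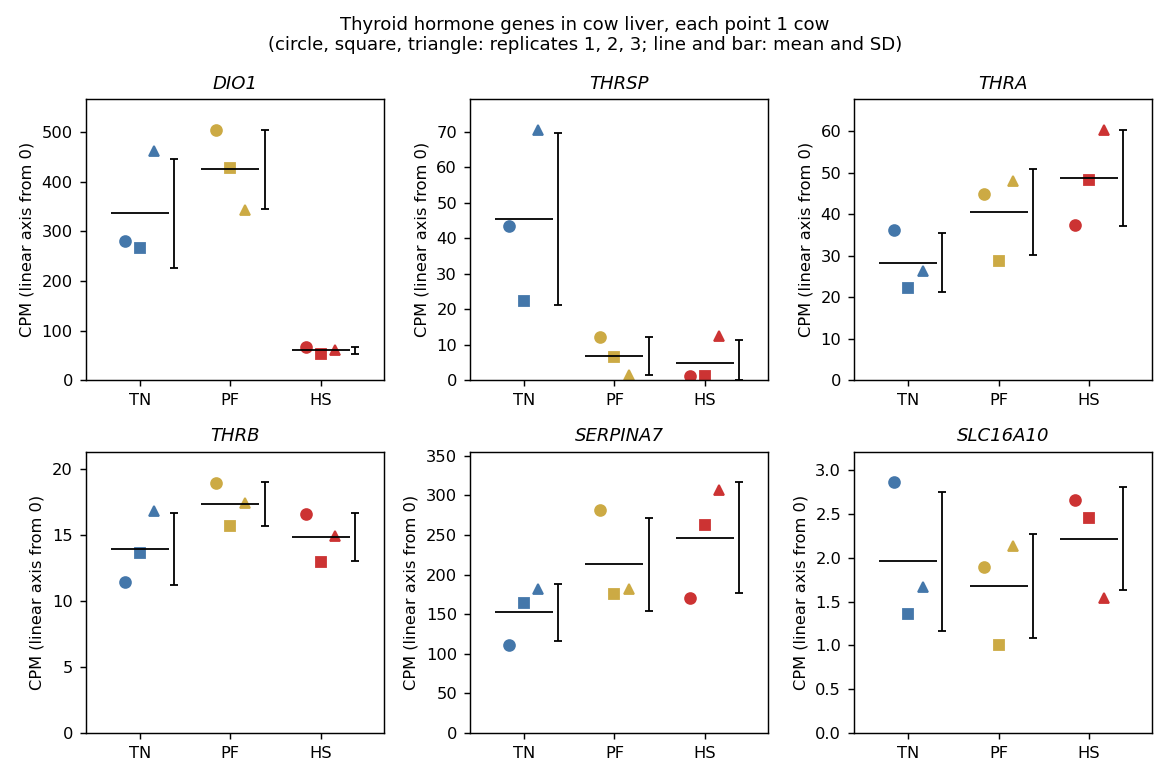
Level of 6 thyroid hormone genes in CPM on linear axes from 0, with 1 point per cow in the TN, PF and HS groups, the line at the mean and the bar at 1 SD (n = 3; a bar that would pass 0 stops there). The HS cows sit at 52.5 to 67.5 CPM for *DIO1*, below all others, whereas for *THRSP* the HS and PF cows both sit below the TN cows.

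RefSeq's annotation of ARS-UCD2.0, which is newer than the assembly the reads were aligned to, has *DIO1* overlapping *IFT25*, listed in the counts by its older symbol *HSPB11*, which encodes a protein of intraflagellar transport. The kit is not stated to mark strand and the counting settings are not given, so how reads from overlapping stretches were assigned is not known. *HSPB11* had 6.61 ± 0.913 CPM in the HS group, 7.93 ± 1.07 in the TN group and 5.90 ± 1.30 in the PF group, and its log2FC was -0.28 (SE 0.27) against TN and 0.16 (SE 0.30) against PF cows. Each count of *HSPB11* was matched by 8.39 to 10.1 counts of *DIO1* in HS, by 31.7 to 56.2 in TN and by 66.6 to 83.4 in PF cows. The ratio holds the counts of *DIO1* that led to its choice and is a description. The flanking genes *LRRC42* and *YIPF1* had log2FC values between -0.33 and 0.03 in HS cows against the other groups, and neither was called.

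Among the other members, 5 had enough counts to be tested in each comparison, and *SLCO1C1* did not. The groups did not overlap for 3 of 6 tested members between HS and TN cows (16.1% of all genes), for *DIO1* alone between HS and PF cows (10.5%) and for *THRSP* alone between PF and TN cows (13.2%). With *DIO1* included, 1 of 6 tested members was called between HS and TN cows, where 0.0892% of all genes were, and 1 of 6 between HS and PF cows, where 0.0276% were. Since that 1 gene was picked for these contrasts, nothing is read from the shares. Between PF and TN cows 0 of 6 members were called by edgeR, where 0% of 14580 genes were. In that comparison 1 member, *THRSP*, had an unadjusted p under 0.05, against 6.88% of all genes, and DESeq2 also called 0.

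**Figure D2:**
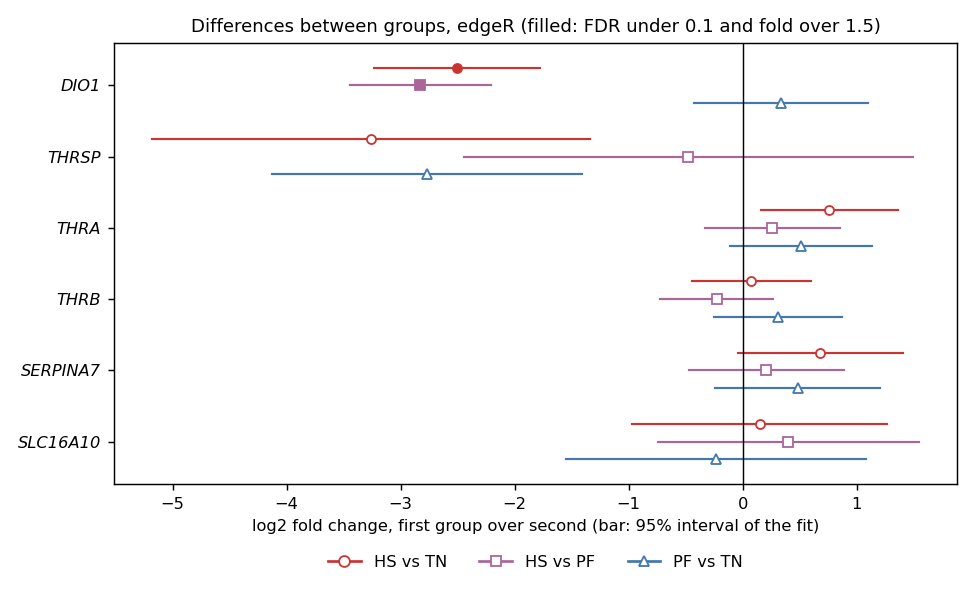
The log2FC of 6 members in each comparison of 2 groups, as a point with its 95% interval from the edgeR fit, filled where called. *DIO1* is filled at -2.50 and -2.83 for HS against TN and PF cows and open at 0.34 for PF against TN cows, while *THRSP* lies at -3.26 and -2.77 against TN cows and at -0.47 between HS and PF cows.

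*THRSP* encodes Spot 14, a protein of fatty acid synthesis whose gene responds to T3, insulin and carbohydrate. It was high in TN cows, with 43.4, 22.2 and 70.6 CPM in replicates 1, 2 and 3. PF replicates 1, 2 and 3 had 12.3, 6.37 and 1.48 CPM, and HS replicates 1, 2 and 3 had 1.18, 1.17 and 12.4 CPM. The TN cows lay above all 6 others, and the PF and HS cows overlapped. The level ranged 60.4-fold over the 9 cows, the widest of the 6 members tested, and the count fell to 20 in the lowest library.

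The log2FC of *THRSP* was -3.26 (SE 0.86, edgeR FDR 0.345) in HS cows and -2.77 (SE 0.62, FDR 0.523) in PF cows, both against TN cows. Neither passed the threshold. The direct comparison of HS and PF cows gave -0.47 (SE 0.89, 95% interval -2.44 to 1.49, edgeR FDR 1.00), an interval too wide to tell whether these groups differ. HS replicate 3 weighed on these values: without it, the log2FC of HS cows was -5.28 against TN cows (edgeR FDR 0.0676) and -2.50 against PF cows (FDR 0.609). The summed erythroid markers given above moved with *THRSP*, apart between TN cows and both other groups, and their part was not tested. The order of the group means was TN, PF and HS, and the neighbours PF and HS did not differ beyond their spread.

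*THRA* encodes the receptor isoforms that prevail in heart, bone and brain. It had 37.4, 48.3 and 60.4 CPM in HS replicates 1, 2 and 3, against 36.2, 22.2 and 26.4 CPM in TN replicates 1, 2 and 3. PF replicates 1, 2 and 3 had 44.9, 28.6 and 48.0 CPM. Each HS cow exceeded each TN cow, but the lowest HS cow had only 1.03 times the level of the highest TN cow, and PF cows overlapped with both. The log2FC was 0.76 (SE 0.27, 95% interval 0.16 to 1.36) in HS cows and 0.51 (SE 0.29, 95% interval -0.11 to 1.14) in PF cows, both against TN cows, with FDRs of 0.462 and 0.709 (edgeR). Between HS and PF cows it was 0.26 (SE 0.27, edgeR FDR 1.00).

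*THRA* overlaps, in the same annotation, *NR1D1*, which encodes the clock repressor REV-ERBα, and *MED24*, which encodes a subunit of the Mediator complex. *NR1D1* had 14.2, 39.9 and 26.4 CPM in HS replicates 1, 2 and 3. Its levels were 5.78 to 13.3 CPM in TN and 2.18 to 6.63 CPM in PF cows, so each HS cow exceeded every other cow. In HS cows the log2FC of *NR1D1* was 1.42 (SE 0.41, edgeR FDR 0.392) against TN and 2.57 (SE 0.45, FDR 0.127) against PF cows. Between PF and TN cows it was -1.14 (SE 0.44, FDR 0.708). The paper, which used DESeq2, lists *NR1D1* as differentially expressed and higher in HS than in TN cows. The value of *THRA* was therefore higher in PF than in TN cows where that of *NR1D1* was lower. *MED24* had 14.9 ± 1.90 CPM in the HS group, 12.7 ± 2.55 in the PF group and 21.6 ± 12.0 in the TN group. How many reads *THRA* shares with these genes was not tested.

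**Figure D3:**
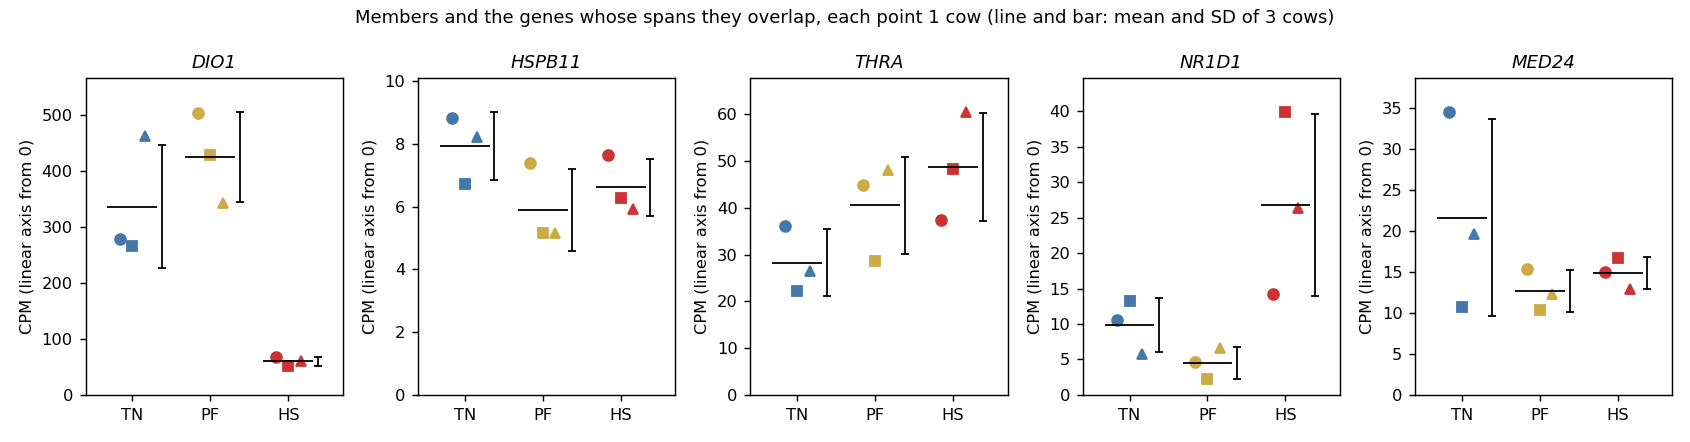
*DIO1* beside the overlapping *HSPB11*, and *THRA* beside the overlapping *NR1D1* and *MED24*, in CPM on linear axes from 0, with 1 point per cow and the mean and SD of n = 3. *HSPB11* sits between 5.14 and 8.81 CPM over the 9 cows without the drop of *DIO1* in HS cows, and *NR1D1* is higher in each HS cow than in the other 6.

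*THRB*, the main T3 receptor gene of hepatocytes, varied least, by 1.66-fold over the 9 cows. It had 11.4, 13.6 and 16.8 CPM in TN replicates 1, 2 and 3, 18.9, 15.6 and 17.4 CPM in PF replicates 1, 2 and 3, and 16.6, 12.9 and 14.9 CPM in HS replicates 1, 2 and 3. The groups overlapped in each comparison. Its log2FC was 0.08 (SE 0.23, 95% interval -0.45 to 0.60) for HS against TN, -0.23 (SE 0.22, 95% interval -0.72 to 0.27) for HS against PF and 0.31 (SE 0.26, 95% interval -0.25 to 0.87) for PF against TN cows. *THRB*, like *SLC16A10*, overlaps a long noncoding RNA gene in the annotation. The intervals keep a change of *THRB* in HS cows within 1 log2 unit either way.

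*SERPINA7* encodes thyroxine-binding globulin, a carrier of thyroid hormone in plasma that the liver secretes. It had 170.2, 262 and 307 CPM in HS replicates 1, 2 and 3, 281, 175 and 182 CPM in PF replicates 1, 2 and 3, and 111, 163.5 and 181 CPM in TN replicates 1, 2 and 3. The means followed the order HS, PF and TN, and each pair of neighbours overlapped. The log2FC was 0.68 (SE 0.32, 95% interval -0.04 to 1.41, edgeR FDR 0.530) for HS and 0.48 (SE 0.33, FDR 0.730) for PF against TN cows, and 0.21 (SE 0.31, FDR 1.00) between HS and PF cows. Of the other plasma carriers, transthyretin (*TTR*) and albumin (*ALB*) had lower values in TN replicate 1 than in any other cow, 865 and 8768 CPM, and neither was called in any comparison.

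The transporters of the list carried few reads. *SLC16A10* encodes MCT10, a transporter of aromatic amino acids and T3. It had 18 to 72 counts per library, or 1.01 to 2.86 CPM, and log2FC values of 0.15 (SE 0.50), 0.40 (SE 0.52) and -0.23 (SE 0.60) for HS against TN, HS against PF and PF against TN cows. *SLCO1C1* encodes OATP1C1, known for T4 uptake at the blood-brain barrier. It had 6, 2 and 1 counts in HS replicates 1, 2 and 3 and 0 counts in each TN and PF cow. A count of 0 allows up to 3 counts, which is 0.134 to 0.185 CPM in the TN and PF libraries, and covers counting error only, so no difference was detectable at this depth and no fold change is given.

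Other genes that take up thyroid hormone in the liver were well covered. *SLC10A1*, the sodium-taurocholate cotransporter, had 540.1 ± 164 CPM in the HS group, 716 ± 189.8 in the PF group and 558 ± 269.6 in the TN group. *SLCO1B3*, an organic anion transporter, had 578 ± 256 CPM in the HS group, 989 ± 331 in the PF group and 772 ± 259 in the TN group. Of the 8 transporter genes besides the members, 7 were tested, and 0 were called by edgeR or had an unadjusted p under 0.05 in any comparison. Over all genes, edgeR called 0.0892%, 0.0276% and 0% in HS against TN, HS against PF and PF against TN cows. An unadjusted p under 0.05 was found for 9.36%, 5.32% and 6.88%. With so few calls over all genes, 0 called says little about a short list. Their median log2FC was -0.08 for HS against TN, -0.41 for HS against PF and 0.20 for PF against TN cows.

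The other deiodinases were at the edge of detection. *DIO2*, which makes T3 in brain and brown fat, had 1 count in TN replicate 3 and 0 in the other 8 cows. *DIO3*, which inactivates T4 and T3, had 5 counts in HS replicate 2 and 0 in the other 8. The iodotyrosine deiodinase *IYD*, which recovers iodide from tyrosines rather than acting on T4, had 29.4 ± 10.6 CPM in the HS group, 26.5 ± 6.16 in the PF group and 16.0 ± 8.63 in the TN group, with a log2FC of 0.87 (SE 0.38, edgeR FDR 0.522) for HS against TN cows. Of the 3 deiodinase genes, *DIO1* therefore held nearly all the counts in each group.

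Of 15 retinoid X receptor, corepressor and coactivator genes, all were tested and 0 were called by edgeR or DESeq2 in any comparison. Over all genes, edgeR called at most 0.0892% in a comparison. Between HS and TN cows 1 had an unadjusted p under 0.05, where 9.36% of all genes did, and the median log2FC was -0.11, beside -0.01 over all genes. That gene was *TBL1X*, a subunit of the corepressor complex, with 99.5 to 146 CPM in HS, 77.8 to 97.6 CPM in PF and 57.9 to 81.5 in TN cows (log2FC 0.71, SE 0.26, edgeR FDR 0.473). *RXRA*, the main retinoid X receptor of liver, had 200.6 ± 18.4 CPM in the HS group, 192 ± 41.5 in the PF group and 227 ± 20.5 in the TN group. Between PF and TN cows the 1 gene under 0.05 was *RXRG*, at 7.15 ± 6.24 and 1.88 ± 0.955 CPM, and its PF cows ran from 1.29 to 13.7 CPM across the TN cows.

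Besides *THRSP*, 23 genes known to respond to T3 in liver were listed. In each comparison of HS cows 22 of them were tested, and 23 in that of PF and TN cows. edgeR called 0, where it called at most 0.0892% of all genes. Between HS and TN cows 3 had an unadjusted p under 0.05, all lower, where 9.36% of all genes did, and the groups of 2 did not overlap, where those of 16.1% did not. Between PF and TN cows 7 of 23 did, 6 lower and 1 higher, where 6.88% of all genes did. Between HS and PF cows only *FGF21* did, where 5.32% of all genes did, and 0 of 22 had groups apart, where 10.5% did. A higher mean in the group named first was found for 7 of 22 genes in HS against TN, 9 of 22 in HS against PF and 9 of 23 in PF against TN cows, where 49.3%, 50.9% and 48.8% of all genes had one. The median log2FC was -0.33, -0.20 and -0.08 for HS against TN, PF against TN and HS against PF cows, beside -0.01, -0.01 and 0.01 over all genes tested. DESeq2 called *ACACA* in both comparisons with TN cows and no other gene of this list.

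*ACACA* encodes acetyl-CoA carboxylase, which commits acetyl-CoA to fatty acid synthesis. TN replicates 1, 2 and 3 had 185.5, 40.2 and 184 CPM, PF replicates 1, 2 and 3 had 35.6, 36.6 and 15.0 CPM, and HS replicates 1, 2 and 3 had 32.1, 25.1 and 38.4 CPM. Both TN replicates 1 and 3 were far above the rest, and TN replicate 2 lay just above the PF and HS cows. Its log2FC was -2.12 (SE 0.51, edgeR FDR 0.290) in HS cows and -2.24 (SE 0.54, FDR 0.577) in PF cows, both against TN cows. DESeq2 gave FDRs of 0.000880 and 0.00217, and without TN replicate 2 edgeR called the gene in both. The summed erythroid markers were apart between the same groups, and their part was not tested. Between HS and PF cows the log2FC was 0.13 (SE 0.33).

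*FASN*, the fatty acid synthase gene, was also lowest in TN replicate 2 among the TN cows, with 178, 42.6 and 217.6 CPM in replicates 1, 2 and 3. It had 9.89 to 56.6 CPM in PF and 10.5 to 50.5 CPM in HS cows, which overlap TN replicate 2. Its log2FC was -2.32 (SE 0.66, edgeR FDR 0.392) in HS cows and -2.07 (SE 0.64, FDR 0.693) in PF cows, both against TN cows. Among the TN cows *THRSP* and *DIO1* were lowest in TN replicate 2 too, *DIO1* at 267 CPM beside 279.6 CPM in TN replicate 1.

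*CYP7A1*, the rate-limiting enzyme gene of bile acid synthesis, had 54.9 ± 51.4 CPM in PF, 104 ± 131 CPM in the HS group and 202 ± 163 in the TN group. Its spread within groups was wide, and the log2FC of PF against TN cows was -1.89 (SE 0.71, edgeR FDR 0.708). *SREBF1*, the regulator of lipid synthesis genes, and *ACLY*, which makes cytosolic acetyl-CoA, had log2FC values of -1.08 (SE 0.39, edgeR FDR 0.697) and -0.82 (SE 0.33, edgeR FDR 0.708) in PF against TN cows. *FGF21*, a hormone of the fasted liver, stood the other way: PF replicates 1, 2 and 3 had 1.42, 28.5 and 10.2 CPM, and all HS and TN cows had 0 to 3.22 CPM. PF replicate 1 overlapped the other groups, and the log2FC was 3.59 (SE 1.22, edgeR FDR 0.697) for PF against TN and -3.49 (SE 1.06, FDR 0.625) for HS against PF cows.

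Of further targets, *CPT1A*, of fatty acid oxidation, had a log2FC of 0.17 (SE 0.32) for HS against TN cows, *PCK1*, of gluconeogenesis, -0.36 (SE 0.38), and *KLF9*, a transcription factor gene induced directly by T3, -0.61 (SE 0.44). *ME1*, malic enzyme, had only 1.45 ± 0.699 CPM in the HS group and 1.58 ± 0.605 in the TN group. None of these genes was called, and none had HS cows apart from both other groups as *DIO1* had.

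**Figure D4:**
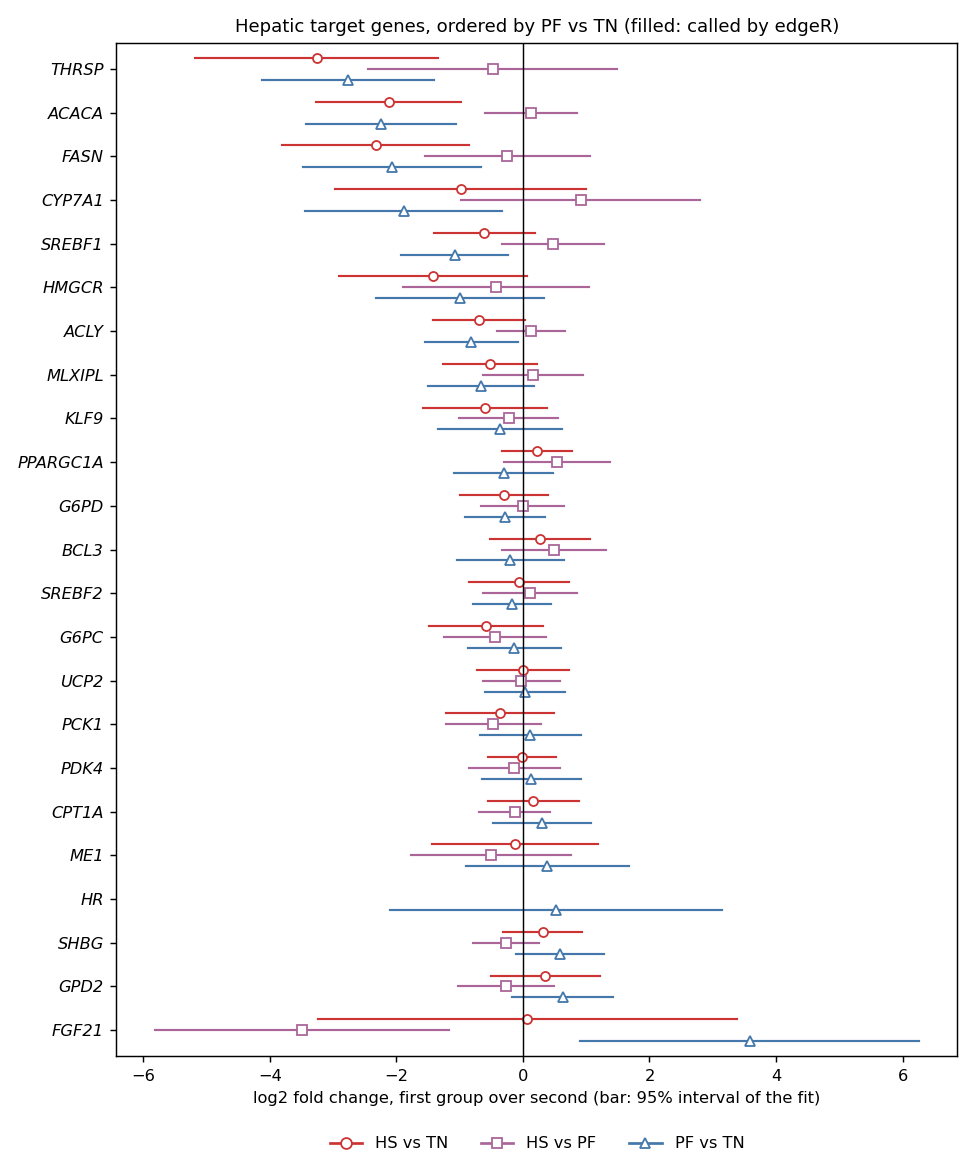
The log2FC with its 95% interval for tested genes of the list of hepatic T3 targets, *THRSP* included and 1 gene not shown, in the 3 comparisons, ordered by PF against TN cows. *THRSP*, *ACACA* and *FASN* lie between -3.26 and -2.07 against TN cows and between -0.47 and 0.13 in HS against PF cows, and no point is filled, as 0 were called by edgeR.

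Because *DIO1* carries selenocysteine, the other selenoprotein genes were set beside it. Apart from *DIO2* and *DIO3*, 20 were listed, and 19 were tested between HS and TN cows and 20 in the other comparisons. edgeR called 0 of them, where it called at most 0.0892% of all genes. Between HS and TN cows 14 of the 19 means were higher in HS cows, with a median log2FC of 0.25, and the groups of 2 of the 19 did not overlap, where those of 16.1% of all genes did not. The only gene under an unadjusted p of 0.05 was *GPX3*, plasma glutathione peroxidase, which had 1183 and 1607 CPM in HS replicates 1 and 2 but 37.7 CPM in HS replicate 3, and at most 180.8 CPM in any PF or TN cow. DESeq2 called none of the list there.

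Against PF cows 12 of the 20 means were lower in HS cows and 8 higher, with a median log2FC of -0.09. *GPX2*, a glutathione peroxidase known from the gut, had 0.295, 0.468 and 0.202 CPM in HS replicates 1, 2 and 3 and 3.73, 2.46 and 1.33 CPM in PF replicates 1, 2 and 3, a log2FC of -2.93 (SE 0.67, edgeR FDR 0.315) that DESeq2 called at an FDR of 0.0142. It rests on 3 to 8 counts per HS cow. Of the abundant members, *GPX1* had a log2FC of 0.55 (SE 0.31) against TN cows, all of which lay below the HS cows, and 0.50 (SE 0.29) against PF cows, *MSRB1* 0.58 (SE 0.40) and -0.07 (SE 0.31), *GPX4* -0.21 (SE 0.29) and 0.18 (SE 0.32), and *SELENOP*, the hepatic selenium carrier, 0.48 (SE 0.57) and -0.55 (SE 0.42). Between PF and TN cows 4 of 20 had an unadjusted p under 0.05, all higher in PF cows, where 6.88% of all genes did. They were *GPX2*, *SELENOS*, *SELENOK* and *SELENOI*, the last 3 with log2FC values of 0.85 (SE 0.32), 0.73 (SE 0.31) and 0.66 (SE 0.26) and FDRs of 0.708 (edgeR).

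Of 7 genes of selenium supply and of selenocysteine synthesis and insertion, 6 were tested and 0 were called by edgeR or DESeq2 in any comparison. Again edgeR called at most 0.0892% of all genes. *SEPSECS*, the synthase that forms selenocysteine on its transfer RNA, had 143 ± 17.5 CPM in the HS group, 199.7 ± 57.2 in the PF group and 225 ± 36.4 in the TN group. Each HS cow was below each TN cow, with a log2FC of -0.67 (SE 0.27, edgeR FDR 0.504). *SEPSECS* was the only 1 of the 6 with an unadjusted p under 0.05, where 9.36% of all genes had one between HS and TN cows. *PSTK*, the kinase of the step before, was also lower in each HS cow than in any other cow, at 0.905 ± 0.293 CPM against 1.73 ± 0.305 CPM in PF cows and 1.78 ± 0.372 in TN cows (log2FC -0.95, SE 0.57, edgeR FDR 1.00, against PF cows). *SECISBP2*, whose product recruits the insertion machinery, had a log2FC of -0.02 (SE 0.21) against TN cows.

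**Figure D5:**
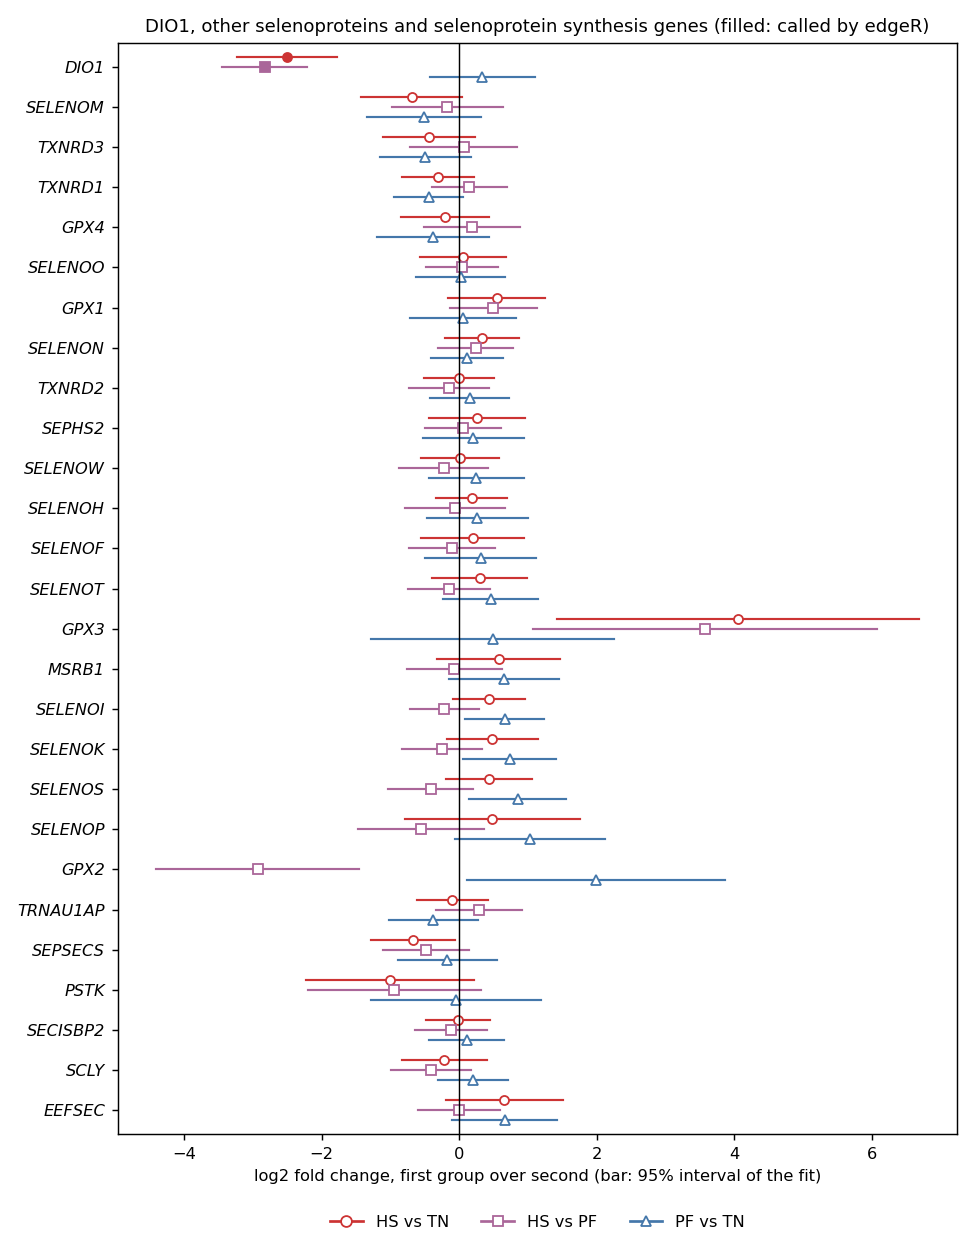
The log2FC with its 95% interval of *DIO1* (top), the other selenoprotein genes tested and the genes of selenocysteine synthesis and insertion (last 6 lines) in the 3 comparisons. Only the HS points of *DIO1* are filled, at -2.50 and -2.83, and most other points lie within 1 log2 unit of 0, with *GPX3* at 4.05 the highest and *GPX2* at -2.93 the lowest of those plotted.

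Genes that bind or conjugate thyroid hormone were the last group. Of 8 listed, all were tested and 0 were called by edgeR or DESeq2, where edgeR called at most 0.0892% of all genes. Between HS and TN cows 0 had an unadjusted p under 0.05, where 9.36% of all genes did, and the median log2FC was 0.35. Between PF and TN cows *SULT1B1*, a thyroid hormone sulfotransferase, had one, with a log2FC of 0.86 (SE 0.38, edgeR FDR 0.708), where 6.88% of all genes did. *SULT1A1*, a sulfotransferase of T4 metabolites, had 794 ± 294 CPM in the HS group, 675 ± 129 in the PF group and 626 ± 291 in the TN group. *UGT1A1*, a glucuronosyltransferase, had 332 ± 71.4 CPM in the HS group and 474 ± 9.26 in the PF group, which did not overlap, with a log2FC of -0.52 (SE 0.27, edgeR FDR 0.960). *PAPSS2*, which makes the sulfate donor, was higher in each HS cow, at 99.6 ± 10.5 CPM, than in any PF or TN cow, with log2FC values of 0.46 (SE 0.22, edgeR FDR 0.949) and 0.37 (SE 0.22, FDR 0.596).

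Over all these lists, 86 genes besides the members were found. edgeR called 0 of 80 tested between HS and TN cows, 0 of 81 between HS and PF cows and 0 of 82 between PF and TN cows. Over all genes it called 0.0892%, 0.0276% and 0%, so 0 called says little about lists of this size. An unadjusted p under 0.05 was found for 7, 3 and 13 of them, beside 9.36%, 5.32% and 6.88% of all genes. DESeq2 called 1 in each, *ACACA*, *GPX2* and *ACACA*, and over all genes 270 of 20466, 122 of 20482 and 91 of 20255.

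The profile of *DIO1* over the 9 cows was compared with that of 15072 other genes by Pearson's r on the log2 scale, as a description, since the points share the groups. The 5 most alike were *NAPSA* (r = 0.961), *RAD50* (0.949), *LOC100847159* (0.937), *LOC101905593* (0.936) and *LOC112449549* (0.934). *NAPSA*, an aspartic protease gene, had only 0.701 ± 0.163 CPM in the HS group, 1.84 ± 0.423 in the TN group and 2.16 ± 0.264 in the PF group. *RAD50*, of DNA break repair, had 23.0 to 26.1, 28.0 to 30.6 and 30.4 to 33.6 CPM in these groups, a far smaller difference of the same shape. Within groups, after the group means were removed, r with *DIO1* ranged from -0.02 for *LOC112449549* to 0.72 for *RAD50*. By rank correlation only 1 of the 5 was again among the 5 most alike.

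For *THRSP* the 5 most alike were *LOC112447358* (r = 0.951), *PEMT* (0.949), *SSC4D* (0.949), *CDKN2D* (0.947) and *C18H16orf70* (0.938), with within-group values from 0.82 to 0.93. *PEMT*, which makes phosphatidylcholine, had 412 ± 40.8 CPM in TN, 290.5 ± 68.7 CPM in PF and 245 ± 59.1 CPM in HS cows. The r between *DIO1* and *THRSP* themselves was 0.52 over the 9 cows and 0.55 within groups.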

How the data were processed

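The values are the authors' deposited raw read counts per gene symbol, without normalization. Per the paper and the labels, reads were cleaned with fastp (0.23.2), aligned to ARS-UCD1.2 with STAR (2.7.9a) and counted with featureCounts (2.0.3). The annotation release, strand and multi-mapping settings are not given in the sources used here. All 9 columns matched a cow by label and 0 were left out. The RefSeq table of ARS-UCD2.0 served only to name overlapping or flanking genes and held all 7 members.

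For each comparison, edgeR 4.0.16 (R 4.3.3) was run on the 6 libraries concerned, with TMM factors, filterByExpr and the quasi-likelihood F test, and Benjamini-Hochberg adjustment covered every gene tested. CPM (scaled counts) used TMM factors of the 9 libraries, and the log2 scale an offset of 0.5. SE and 95% intervals come from the fit. The 3 comparisons share groups, and the p-values measure only the spread between these cows. The fits were tested on simulated counts with 200 changed genes. Alternatives were DESeq2 1.42.0 (the tool of the paper), RLE factors, mitochondrial genes left out, other low-count filters, all 9 libraries in 1 fit, a replicate block, an FDR under 0.05 for the counts of calls, and each cow left out. The genes the paper measured by RT-qPCR included *DIO1*, and those values were not analysed here.

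The members and lists were chosen with earlier results of these data known. The rule for named genes covered the members, genes that overlap or flank them, in each list the genes called or with an unadjusted p under 0.05 and up to 4 others by mean CPM, and the 5 genes most like *DIO1* and *THRSP*. Some further listed genes (*DIO2*, *DIO3*, *ME1*, *KLF9*, *CPT1A*, *GPX4*, *MSRB1*, *PSTK*, *SECISBP2*, *PAPSS2* and others) were named after their values were seen. Some listed genes are counted with their lists but not reported singly here.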

Additional observations from a re-analysis of the deposited data

How the results depend on the processing

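The direction of *DIO1* was the same under all 13 alternatives of each comparison. In HS against PF cows it was called under each of them, with log2 fold changes from -2.96 to -2.69, and in PF against TN cows under none, with 0.20 to 0.64. In HS against TN cows it was called under 9 of 13, and the 6 fits without 1 cow gave -2.64 to -2.21, of which 2 were called. The fits with HS cows reuse the values that led to the choice of *DIO1* and are a description. At an FDR under 0.05, 0 members were called between HS and TN cows. The lowest edgeR FDR of all 14582 genes tested there was 0.0684, so no gene of any list could be called. Without a filter on low counts 2 members (*DIO1* and *THRSP*) and 3 other listed genes were called between HS and TN cows, 3 other listed genes between HS and PF cows, and 1 member (*THRSP*) and 4 other listed genes between PF and TN cows. DESeq2 called 1 other listed gene in each comparison. Over all genes, edgeR called 13, 4 and 0 in HS against TN, HS against PF and PF against TN cows, against 270, 122 and 91 by DESeq2 and 124, 98 and 136 without the filter. With 1 cow left out, 0 to 1 members and 0 to 1 other listed genes were called between HS and TN cows, and 0 to 1 other listed genes between PF and TN cows. Over all genes, the same fits called 0 to 39 between HS and TN cows and 0 to 14 between PF and TN cows. Small values changed sign when 1 cow was left out: *THRB* (-0.038 to 0.23) and *SLC16A10* (-0.043 to 0.55) in HS against TN, *THRSP* (-2.50 to 0.30) in HS against PF and *SLC16A10* (-0.45 to 0.15) in PF against TN cows. Where a call moved with DESeq2 or the filter, the cause was not tested.

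The labels number the cows 1 to 3 in each group and state no shared pen, day or batch. Same-numbered cows deviated together in no regular way (correlations of their deviations from -0.22 to 0.24). In HS and TN cows 3 of 6 correlated best with their own number, in HS and PF cows 1 of 6 and in PF and TN cows 2 of 6. With the replicate block, 2 members (*DIO1* and *THRSP*) and 1 other listed gene (*FASN*) were called between HS and TN cows, and all genes called rose from 13 to 33. The block changed no other call on these genes. Genes with few counts, such as *SLCO1C1*, *DIO2* and *DIO3*, could not be compared at this depth.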
